A study of Mus musculus with 2 samples.

Results

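The collagen genes were taken as every mouse gene whose symbol is Col, a number, the letter a and a number, and 44 of the 32285 genes in the count tables have such a symbol. They were separated into 10 genes of the epithelial basement membrane, 13 genes that fibroblasts are best known for, and 21 others, most of them known from cartilage, nerve, muscle or other tissues. All 44 were detected in thymic epithelial cells, with between 55 and 8012 UMIs each, and none fell under the minimum of 50 UMIs used for ratios. A UMI (unique molecular identifier) marks 1 captured RNA molecule. Levels are given as CPM, the usual scaling of a gene's UMIs by all UMIs of the cells in question, without division by transcript length, so levels are compared between cells and libraries and not between genes.

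Collagens are secreted or membrane-bound proteins whose chains wind into a helix and assemble into matrix. Type IV collagen forms the sheet of the basement membrane on which epithelia and endothelia rest, type VII collagen anchors that sheet to the tissue below, type XVII collagen fixes epithelial cells to it, and types XV and XVIII lie at its border. Fibroblasts make the fibrils of types I, III and V, the beaded filaments of type VI and the fibril-associated types XII, XIV and XVI. The thymic medulla also has epithelial cells that transcribe genes of peripheral tissues, under Aire and Fezf2, or that resemble peripheral cell types, the mimetic cells, so a collagen RNA in a thymic epithelial cell need not be a matrix product.

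The data were single-cell transcriptomes of live thymus cells of mice sorted for the epithelial surface protein EPCAM, in a study of Foxp1, a forkhead transcription factor. One library is labelled Foxp1 KO (Cre+) and 1 is labelled Foxp1 WT (Cre-), and the genotype field reads KO for both, so the titles and library names were used. The strain, age and number of the mice, the Cre driver and the deleted exons were not stated in the labels. With 1 library per group there was no replicate and no test, and every interval below covers counting error only, at 95%, and not variation between mice, sorts or captures. Where a pair of values is given, the library labelled KO comes first and the library labelled WT second.

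Foxp1 was at 404 and 252 CPM in epithelial cells, a log2 ratio of 0.68 (interval 0.64 to 0.72), so its whole-gene count was higher in the library labelled KO, against the label. The count does not show which exons are present. The libraries held 4277 and 4957 barcodes, of which 3584 and 4037 were kept, with medians of 5097.5 and 6267 UMIs. Clustering without the collagen genes gave 18 clusters, and 14 of them, with 3266 and 3881 cells, were treated as epithelial. The other 4 were fibroblast-like (24 and 12 cells), endothelial-like (254 and 99 cells), mesothelial-like (10 and 7 cells) and thymocyte-like (30 and 38 cells). Thymocytes should lack collagen RNA, so these 68 cells, of median depth 3832 UMIs, are given beside the epithelial levels as a background. They are not free of epithelial RNA: 6 epithelial markers summed to 2659 and 1681 CPM in them, against 3895 and 3824 CPM in epithelial cells, and 35.3% of them held a UMI of Epcam. The endothelial-like cells had 2167 and 2310 CPM of these markers and Epcam in 44.5% of cells. Whether this came from free RNA or from attached cells was not tested. The libraries shared 5 barcodes.

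Clusters 0, 5, 6 and 7 matter most for what follows, and they are called by their leading genes. By their markers, all 4 met the list of Ccl21a-expressing medullary cells. Cluster 0 is led by Ccl21a, Tagln and Acta2. Cluster 5 is led by Vit, Ifi202b and Rarb, and cluster 7 by Adamts18, Gpr139 and Dpp6. Cluster 6 had a median of only 1753 UMIs and a UMI of Epcam in 41.7% of its cells, and it stays unnamed as the low-RNA cluster. Gm42418, AY036118 and Gm26917 are among its leading genes, it held 359 and 168 cells, and whether these cells were damaged was not tested. Tuft-like cells form cluster 1, led by Sh2d6 and Pik3cg, and cluster 12, with the taste genes Gnat3 and Tas2r105. Clusters 4, 9 and 10 are called Aire-stage-like, and the rest are cycling (cluster 2), neuroendocrine-like (3), microfold-like (11), ciliated-like (13) and keratinocyte-like (14). Only cluster 10 met the Aire-stage list by Aire and Fezf2. Cluster 4 met 3 of its 9 markers, Cd80, Cd86 and Ccl22, and is led by Ctla4, Nos2 and Pnp2. Cluster 9 met 3, Cd86, H2-Aa and Ccl22. With both libraries summed, Aire was at 427 CPM in cluster 4, 579 CPM in cluster 9, 991 CPM in cluster 10 and 601 CPM in cycling cells.

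The type IV genes lie in head-to-head pairs in the genome, and the sequence around the starts of 2 of these pairs is shown because the data below compare the partners. On the mm10 build, Col4a1 (chr8:11198423-11312826, minus strand) and Col4a2 (chr8:11312805-11449287, plus strand) have annotated starts 21 bases apart, and the genes overlap there. Col4a3 (chr1:82586921-82722059, plus strand) and Col4a4 (chr1:82448423-82586849, minus strand) start 72 bases apart, and Col4a5 and Col4a6 on chromosome X start 1309 bases apart. The RefSeq promoter windows on GRCm38.p6 run from 250 bases before to 50 bases after a start and are printed 5′ to 3′ on the strand of the gene. In the windows of Col4a1 (chr8:11312777-11313076) and Col4a2 (chr8:11312555-11312854) the capitals are the 78 bases that both windows hold, on opposite strands. In the window of Col4a4 (chr1:82586800-82587099) the capitals are the 73 bases from the start of Col4a3 through the start of Col4a4.
Col4a1: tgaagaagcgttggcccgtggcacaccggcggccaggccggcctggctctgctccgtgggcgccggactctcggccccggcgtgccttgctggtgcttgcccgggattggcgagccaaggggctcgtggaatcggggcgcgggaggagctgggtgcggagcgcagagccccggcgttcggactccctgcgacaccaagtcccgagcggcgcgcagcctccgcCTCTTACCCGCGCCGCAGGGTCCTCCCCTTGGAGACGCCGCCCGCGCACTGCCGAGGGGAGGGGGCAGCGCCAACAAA
Col4a2: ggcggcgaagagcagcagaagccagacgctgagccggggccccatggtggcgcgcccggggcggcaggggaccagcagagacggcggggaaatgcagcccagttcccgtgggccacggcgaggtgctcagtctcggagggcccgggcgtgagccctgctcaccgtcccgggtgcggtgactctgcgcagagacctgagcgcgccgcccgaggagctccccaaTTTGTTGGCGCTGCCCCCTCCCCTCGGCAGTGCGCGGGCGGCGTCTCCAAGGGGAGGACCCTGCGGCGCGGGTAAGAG
Col4a4: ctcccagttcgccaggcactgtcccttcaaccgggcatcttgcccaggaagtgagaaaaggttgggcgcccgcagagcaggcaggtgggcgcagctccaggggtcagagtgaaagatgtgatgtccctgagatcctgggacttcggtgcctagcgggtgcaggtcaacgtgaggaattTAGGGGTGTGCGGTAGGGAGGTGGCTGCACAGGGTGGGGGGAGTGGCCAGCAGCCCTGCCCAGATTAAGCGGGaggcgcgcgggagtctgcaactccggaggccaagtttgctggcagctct
A window was found for 35 of the 44 genes, and the windows of 2 of these 35, Col4a1 and Col4a2, overlap that of a gene on the opposite strand, against 11.9% of all 27025 genes with a window. Col4a3 is among the genes with no window, so its overlap with the Col4a4 window was not counted. The letters GGGCGG (GC box), searched on both strands, were in the windows of 22 of the 35, among them Col4a1 and Col4a2, and in 35.7% of all 32851 windows. The letters CCAAT were in 13 of the 35 and in 37.4% of all windows. For both motifs the collagen genes were counted by gene, with a match in any window of the gene. The shares of all windows were counted by window, so the values are of unlike units. In the 3 windows printed, no match shared bases with another, and the Col4a4 window held neither motif.

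The basement membrane sheet genes Col4a1 and Col4a2 were highest in the same 4 epithelial clusters. Col4a1 was at 736 and 543 CPM in the low-RNA cluster, 672 and 565 CPM in cluster 5, 506 and 541 CPM in cluster 7, and 281 and 278 CPM in cluster 0. Endothelial-like cells, which also carry the epithelial RNA given above, had 531 and 552 CPM. In the other 10 epithelial clusters, both libraries summed, Col4a1 lay between 47.7 CPM (keratinocyte-like) and 139 CPM (neuroendocrine-like), and the thymocyte-like cells had 75.2 CPM (51.5 to 106), an interval that holds the levels of most of these clusters. Of cells thinned to 2000 UMIs, 60.5% in cluster 5 and 41.2% in cluster 0 held a Col4a1 UMI, against 9.68% of the 62 thymocyte-like cells of that depth. Before thinning, 73.7% and 71.7% of cells in cluster 5, of median depth 2878 UMIs, held one, against 23.5% of the thymocyte-like cells.

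Col4a2 encodes the partner chain and was highest in the same 4 clusters. It was at 356 and 347 CPM in the low-RNA cluster, 348 and 325 CPM in cluster 5, 315 and 399 CPM in cluster 7, and 157 and 143 CPM in cluster 0. The thymocyte-like cells had 30.6 CPM (16.3 to 52.3). Of the epithelial cells with a Col4a1 UMI, 52.7% also had a Col4a2 UMI, against 16.8% of those without. The UMIs of Col4a1 stood to those of Col4a2 as 1.88 and 1.83 to 1 in the epithelial cells and as 1.77 and 1.71 to 1 in the endothelial-like cells.

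**Figure D1:**
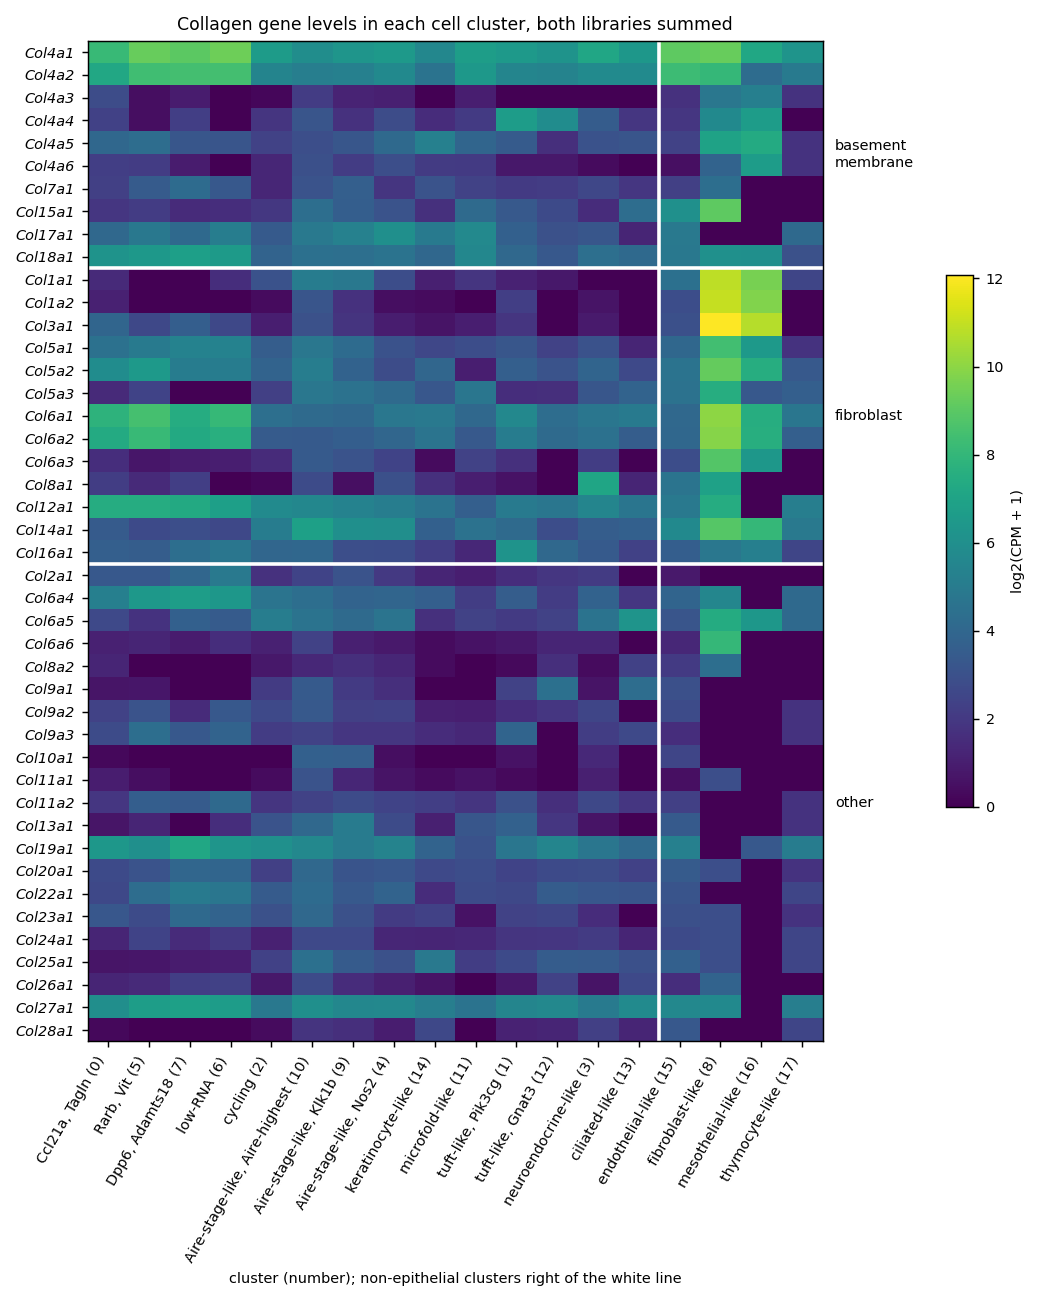
Levels of the 44 collagen genes, grouped as basement membrane, fibroblast and other, in the 18 clusters as log2(CPM + 1) with both libraries summed. Colours compare clusters within a gene: Col4a1 and Col4a2 are high in clusters 0, 5, 6 and 7 and in endothelial-like and fibroblast-like cells, whereas Col1a1, Col1a2 and Col3a1 are high in fibroblast-like and mesothelial-like cells.

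The second head-to-head pair did not go together in tuft-like cells. Col4a4 encodes a chain best known from the kidney filter, where it assembles with the products of Col4a3 and Col4a5. Its level was 122 and 91.6 CPM in tuft-like cluster 1 and 20.7 and 84.0 CPM in tuft-like cluster 12, against 12.4 and 14.4 CPM over all epithelial cells, and its 722 epithelial UMIs lay to 57.5% in cluster 1. No UMI of Col4a4 was counted in the thymocyte-like cells. Mesothelial-like cells, 10 and 7 in number, had 9 and 2 UMIs of Col4a4, and fibroblast-like cells had 8 and 0. In the library labelled KO both of these levels were above the 20.7 CPM of cluster 12. Of 770 tuft-like cells, 202 had a Col4a4 UMI and 0 had a Col4a3 UMI, with 497 UMIs of the former and 0 of the latter. A count of 0 in 770 cells of median depth 5471 allows up to 0.39% of cells with a UMI, or 0.54 CPM. Col4a3 itself had 58 and 26 UMIs in all epithelial cells, and 50% of them lay in 7 cells. Of the 44 epithelial cells with Col4a3, 9 also had Col4a4, all in the Aire-stage-like clusters. Of the 4 mesothelial-like cells with Col4a3, 3 also had Col4a4.

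Col4a5 encodes a chain of epithelial basement membranes such as that of skin. Among epithelial clusters it was highest in keratinocyte-like cells, at 37.0 and 38.1 CPM, against 11.5 and 11.7 CPM over all epithelial cells. Fibroblast-like and mesothelial-like cells were above the keratinocyte-like level in both libraries, from 16 and 3 UMIs and from 14 and 4 UMIs of Col4a5. The neighbour gene Col4a6 was at 2.54 and 4.19 CPM in epithelial cells, with 50% of its UMIs in 7 cells. Of the 458 epithelial cells with Col4a5, 28 also had Col4a6. Col17a1, which encodes the hemidesmosome collagen that ties basal cells to the basement membrane, was highest in Aire-stage-like cluster 4, at 75.3 and 55.9 CPM, and in microfold-like cells, at 46.4 and 53.8 CPM. In keratinocyte-like cells it was at 19.6 and 35.5 CPM, and the thymocyte-like cells had 16.5 CPM (6.62 to 33.9). Col18a1, the source of endostatin, shared the high clusters of Col4a1, with 126 and 87.8 CPM in cluster 7, 110 and 67.1 CPM in the low-RNA cluster and 77.0 and 89.3 CPM in cluster 5. Col15a1 was mainly a gene of other cells, at 426 and 760 CPM in fibroblast-like and 48.1 and 97.2 CPM in endothelial-like cells, against 7.58 and 9.26 CPM in epithelial cells. Col7a1, the anchoring fibril gene, was at 6.42 and 5.36 CPM.

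Markers of mesenchymal cells are given beside these levels. The 8 fibroblast markers other than collagens summed to 455 and 541 CPM in cluster 0, 496 and 478 CPM in cluster 5, 254 and 260 CPM in the low-RNA cluster and 236 and 275 CPM in cluster 7, against 205 and 200 CPM over all epithelial cells and 23483 and 17912 CPM in fibroblast-like cells. Keratinocyte-like cells, with little type IV collagen, had 433 and 417 CPM, but Gsn alone gave 385 and 395 CPM of these sums. Gsn was the highest of the 8 in each of these epithelial clusters in both libraries. It was at 231 and 282 CPM in cluster 0, 303 and 289 CPM in cluster 5, 127 and 158 CPM in the low-RNA cluster and 120 and 142 CPM in cluster 7. The markers other than Gsn thus made up a larger part of the sum in these 4 clusters than in keratinocyte-like cells. Lum, Dpt and Mfap5 were at 0 in cluster 7 of both libraries. The 8 markers of pericytes and smooth muscle summed to 2007 and 2652 CPM in cluster 0, 1092 and 1306 CPM in cluster 5, 1068 and 1036 CPM in the low-RNA cluster and 947 and 1182 CPM in cluster 7, against 682 and 629 CPM over all epithelial cells. Fibroblast-like cells had 3198 and 2397 CPM of these markers. In cluster 0, Tagln alone, among its leading genes, was at 1067 and 1299 CPM. Pdgfrb was at 0 in cluster 7 of both libraries and in clusters 5 and 6 of the library labelled KO, whereas Rgs5 was at 325 and 555 CPM in cluster 5, and Myh11 at 339 CPM in cluster 6 and 302 CPM in cluster 7 of the library labelled KO. The part of such cells in the collagen levels was not tested.

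The fibroblast collagens separated into genes that epithelial cells barely had and genes they shared with fibroblasts. In the 36 fibroblast-like cells, Col3a1 was at 3841 and 5185 CPM, Col1a2 at 1980 and 2163 CPM and Col1a1 at 2000 and 1676 CPM, which with both libraries summed was 1029-fold, 862-fold and 173-fold above the epithelial cells. Of the 13 fibroblast genes, 10 were over 10-fold above epithelial cells there, and 11 were highest in the fibroblast-like cluster of all 18. Of the 10 basement membrane genes, 3 were over 10-fold above and 5 highest there, and of the 21 others 2 and 5. Of all 19016 genes with at least 50 epithelial UMIs, 2.36% were over 10-fold above and 10.1% highest there. This was a description of the groups as drawn from general knowledge, with collagens kept out of the clustering and of the markers that named the cells. In clusters 5, 6 and 7 no Col1a2 UMI was counted, which allows up to 1.03, 3.04 and 2.75 CPM.

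Type VI collagen showed this split within 1 molecule, since its beaded filament is built from the chains of Col6a1 and Col6a2 together with a further chain from Col6a3, Col6a4, Col6a5 or Col6a6. Col6a1 was at 329 and 377 CPM in cluster 5, 267 and 286 CPM in the low-RNA cluster, 207 and 247 CPM in cluster 0 and 190 and 158 CPM in cluster 7, and the thymocyte-like cells had 25.9 CPM (12.9 to 46.3). Fibroblast-like cells had 802 and 1462 CPM. Col6a2 was at 278 and 279 CPM in cluster 5, and at 136 and 204 CPM in cluster 0. Of the epithelial cells with Col6a1, 52.3% also had Col6a2, against 10.1% of those without.

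Of the chains that complete the molecule, Col6a3 and Col6a6 were higher in fibroblast-like than in epithelial cells in both libraries, while the order for Col6a4 differed between the libraries. Col6a3 was at 178 and 994 CPM in fibroblast-like cells and 3.97 and 4.29 CPM in epithelial cells, 109-fold apart with both libraries summed, and Col6a6 was 162-fold apart. Col6a4 had 103 and 108 CPM in cluster 7, 78 and 92.0 CPM in cluster 5, 82.2 and 84.6 CPM in the low-RNA cluster, and 9.90 and 117 CPM in fibroblast-like cells, from 1 and 6 UMIs. The fibroblast-like level was thus below that of cluster 7 in the library labelled KO and not below it in the library labelled WT. With both libraries summed, Col6a5 was highest of epithelial clusters in ciliated-like cells, at 105 and 24.9 CPM. Cycling cells came next, at 43.8 and 25.2 CPM, and were not below ciliated-like cells in the library labelled WT. The fibroblast-like level of Col6a5, 29.7 and 448 CPM, rested on 3 and 23 UMIs. It was above both in the library labelled WT and below both in that labelled KO. The 4 clusters with most Col6a1 were thus also the 4 with most Col6a4, while Col6a3 had 1 and 1 UMIs in cluster 5. Col6a4, Col6a5 and Col6a6 lie on chromosome 9, and Col6a1 and Col6a2 on chromosome 10.

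**Figure D2:**
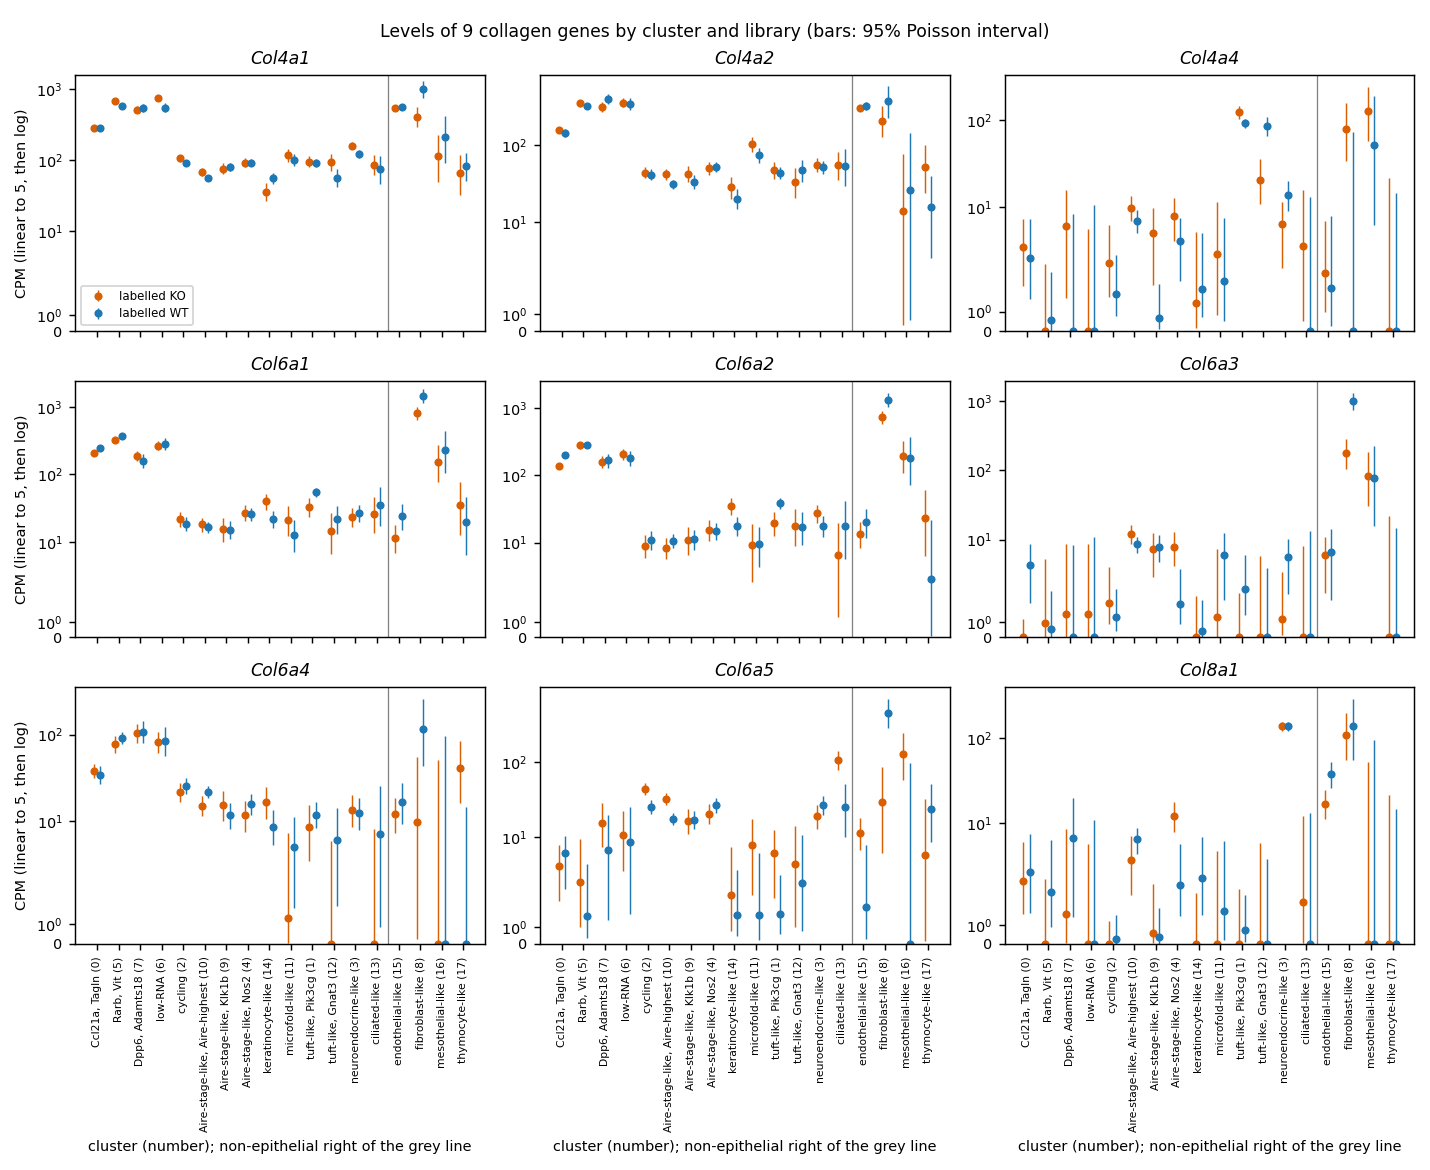
CPM of 9 collagen genes by cluster in the library labelled KO (orange) and the library labelled WT (blue), on an axis that is linear up to 5 CPM and logarithmic above, with 95% Poisson intervals for counting error. Among epithelial clusters, Col4a4 stands out in the tuft-like clusters 1 and 12 and Col8a1 in neuroendocrine-like cells. Col6a3 is high in fibroblast-like cells and low in every epithelial cluster.

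Among epithelial clusters, some genes of the fibroblast group were highest in 1 kind of cell and others in several. Of all 18 clusters, 11 of the 13 genes were highest in the fibroblast-like cluster, as given above. Col8a1, a short-chain collagen of vessel walls and the cornea, was at 136 and 136 CPM in neuroendocrine-like cells, with 78% of its epithelial UMIs there, and 48.3-fold above the other epithelial clusters. Fibroblast-like cells had 118 CPM, and the thymocyte-like cells had none. Col16a1 was at 75.3 and 72.6 CPM in tuft-like cluster 1, against 14.4 and 16.8 CPM over all epithelial cells. Col14a1, a fibril-associated collagen, was at 121 and 109 CPM in Aire-stage-like cluster 10, which held 51.3% of its epithelial UMIs, against 28.2 CPM (14.6 to 49.3) in thymocyte-like cells and 535 and 331 CPM in fibroblast-like cells. Col12a1 followed the clusters of type IV collagen, with 169 and 180 CPM in cluster 5, 168 and 182 CPM in cluster 0 and 143 and 187 CPM in cluster 7. Fibroblast-like cells had 188 and 156 CPM of Col12a1, so each of these epithelial levels lay within the fibroblast-like counting interval of 117 to 258 CPM. Of the type V genes, Col5a1 was highest in the low-RNA cluster, Col5a2 in cluster 5 and Col5a3 in cluster 10.

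Col1a1, the chain of type I collagen, was found in few epithelial cells and mostly without its partner. It had 171 and 409 UMIs in 40 and 82 epithelial cells, and 505 of these 580 UMIs were in 95 Aire-stage-like cells. Most type I collagen combines the products of Col1a1 and Col1a2, although a form of Col1a1 chains alone is known. In these cells, 2 of the 122 epithelial cells with Col1a1 (1.64%) also had Col1a2, against 0.68% of those without Col1a1. In the Aire-stage-like clusters these shares were 2.11% and 1.93%. Col1a2 was in only 50 of all 7147 epithelial cells, so few cells with both could be seen. Of the 122 cells, 6 also had Col3a1 (4.92%), against 1.14% of those without Col1a1. In fibroblast-like cells, 30 of the 32 cells with Col1a1 also had Col1a2. A UMI of the 8 fibroblast markers was in 58.2% of epithelial cells with Col1a1 and 49% of those without, at median depths of 11476 and 5658 UMIs. For Col3a1, with 86 cells, the same shares were 77.9% and 48.8%, at 7512 and 5734 UMIs. At least 2 of the 8 markers were in 44 of the 86 cells with Col3a1 and in 31 of the 122 with Col1a1.

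The other 21 collagen genes, known mainly from cartilage, nerve, muscle and eye, gave 25.4% of the 47356 collagen UMIs in epithelial cells, against 37.6% for the basement membrane group and 37.0% for the fibroblast group. Col19a1 was at 131 and 162 CPM in cluster 7 and at 80.6 and 87.2 CPM in cluster 0, against 32.9 CPM (18 to 55.2) in thymocyte-like cells and 0 UMIs in fibroblast-like cells. Col27a1 was at 120 and 106 CPM in cluster 7, against 51.1 and 51.9 CPM over all epithelial cells and 35.3 CPM in thymocyte-like cells. Col9a1, a cartilage gene, was at 39.9 and 6.09 CPM in tuft-like cluster 12, from 25 and 5 UMIs, and at 26.3 and 7.13 CPM in ciliated-like cells. Col2a1, the main cartilage fibril gene, was at 29.5 and 26.3 CPM in the low-RNA cluster, from 19 and 9 UMIs. The remaining genes of the group, Col6a6, Col8a2, Col9a2, Col9a3, Col11a2, Col20a1, Col22a1, Col23a1, Col24a1, Col26a1 and Col28a1, ranged from 0.97 CPM (Col8a2 in the library labelled WT) to 11.9 CPM (Col22a1 in the library labelled KO), counted in epithelial cells.

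Some collagen RNAs were gathered in single cells. For 11 of the 44 genes, 50% of the epithelial UMIs lay in 20 cells or fewer, as they did for 13.5% of the 17577 genes with 55 to 8012 UMIs. Genes with few UMIs reach 50% in fewer cells: of genes with 50 to 580 UMIs the share was 24.8%, and 11 of the 24 collagen genes in that range were gathered so. The limit of 580 UMIs is that of the gathered collagen gene with most UMIs. All 11 therefore fall in the range by its definition, which raises the collagen share, so the shares in it cannot be compared evenly. Col10a1, the gene of hypertrophic cartilage, had 82.2% of its 191 UMIs in 10 cells, and 50% in 3. Col13a1 had 50% of its 486 UMIs in 4 cells, 1 of which held 109. Col25a1, a transmembrane collagen of neurons and motor nerve contacts, had 50% of its 532 UMIs in 10 cells, with 95 in 1 keratinocyte-like cell. Col11a1 reached 50% in 6 cells and Col1a2 in 9. For Col4a1 and Col4a2, 698 and 614 cells were needed.

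**Figure D3:**
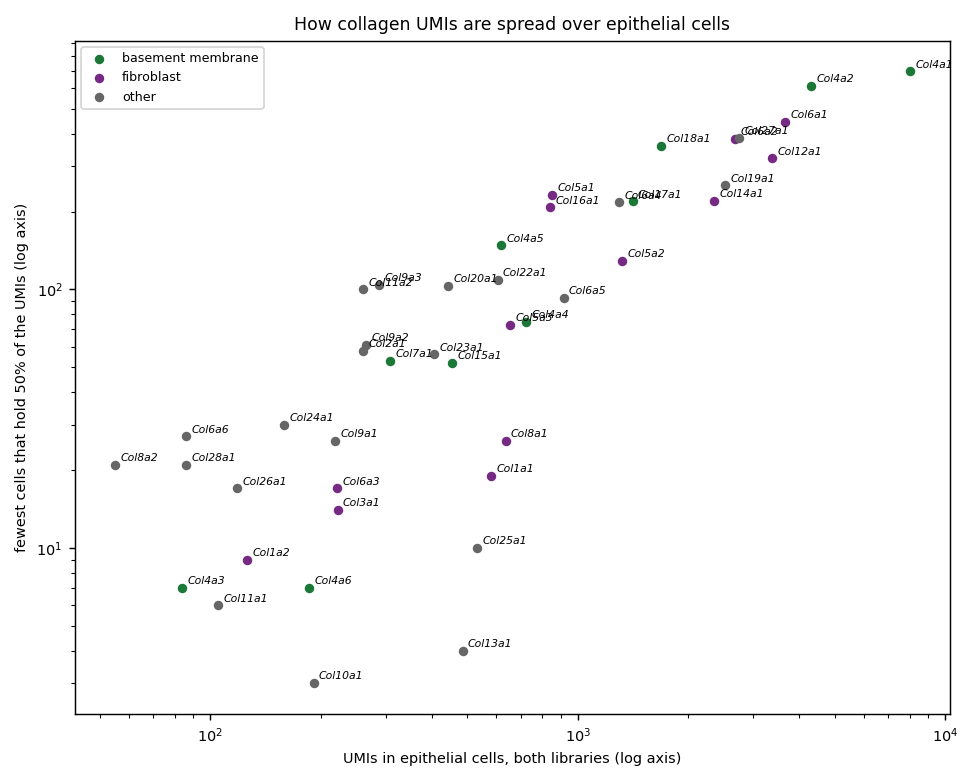
For each collagen gene, the fewest epithelial cells that hold 50% of its UMIs (log axis) against its UMIs in epithelial cells of both libraries (log axis). Col10a1 and Col13a1 lie lowest, with 3 and 4 cells, and Col4a1 lies at the upper right with 698 cells and 8012 UMIs.

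Between the libraries, 22.7% of the collagen genes differed by the fold used for calls, a larger share than of all genes, and no test of that difference was made. Over all epithelial cells, 10 of the 44 genes differed by at least 1.5-fold in either direction, 4 of them at a higher and 6 at a lower level in that labelled KO, beside 12.7% of all 19016 genes with at least 50 UMIs (5.54% higher and 7.17% lower). At a fold of 2 there were 2 higher and 2 lower, beside 4.12% of all genes (1.65% and 2.47%), and of the 34 collagen genes with at least 200 UMIs, 3 were higher and 2 lower at the fold of 1.5, beside 7.03% (2.85% and 4.18%). The median log2 ratio of the 44 genes was 0.07, and that of all genes was -0.01. The interval lay above 0 for 13 genes, below 0 for 11 and held 0 for 20. All 6 genes that were lower and 3 of the 4 that were higher, all but Col2a1, were among the 11 whose UMIs gather in 20 cells or fewer, so their ratios rest on few cells and their intervals, which treat UMIs as independent, are too narrow.

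The higher genes were Col4a3, Col3a1, Col25a1 and Col2a1. Col4a3 was at 2.59 and 0.845 CPM, a log2 ratio of 1.61 (0.92 to 2.34), which was 0.70 without the 10 cells of each library that hold most of it. In cluster 0 it had 27 and 4 UMIs, and 25 of the 27 lay in 1 cell. Col25a1 was at 13.5 and 7.44 CPM, a log2 ratio of 0.86 (0.61 to 1.11), which was 0.18 without those cells. Col3a1 was at 5.97 and 2.86 CPM, a log2 ratio of 1.06 (0.66 to 1.47), and 0.38 with equal weight for each cell. The fibroblast-like cells numbered 24 and 12, and their part in the Col3a1 level was not tested.

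The lower genes were Col1a1, Col1a2, Col4a6, Col10a1, Col11a1 and Col13a1. Col1a1 was at 7.62 and 13.3 CPM, a log2 ratio of -0.80 (-1.07 to -0.54). In Aire-stage-like cluster 10, where its level is highest, it was at 31.6 and 32.5 CPM, a log2 ratio of -0.04 (-0.37 to 0.28). In cluster 9 it was at 17.7 and 33.7 CPM, and in cycling cells 1 and 48 UMIs were counted. Without the 10 highest cells of each library the ratio of Col1a1 was -1.73. Col1a2 was at 1.29 and 3.15 CPM, a log2 ratio of -1.29 (-1.94 to -0.67), and -2.67 without those cells. Col1a1 was in 40 and 82 epithelial cells and Col1a2 in 14 and 36. Leaving out 10 cells per library thus took a larger share of such cells from the library labelled KO. For these genes, the ratios without those cells therefore cannot show whether the difference holds. Col13a1 was at 5.97 and 11.4 CPM, a log2 ratio of -0.94 (-1.24 to -0.65), which was -0.23 without the 10 highest cells of each library.

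**Figure D4:**
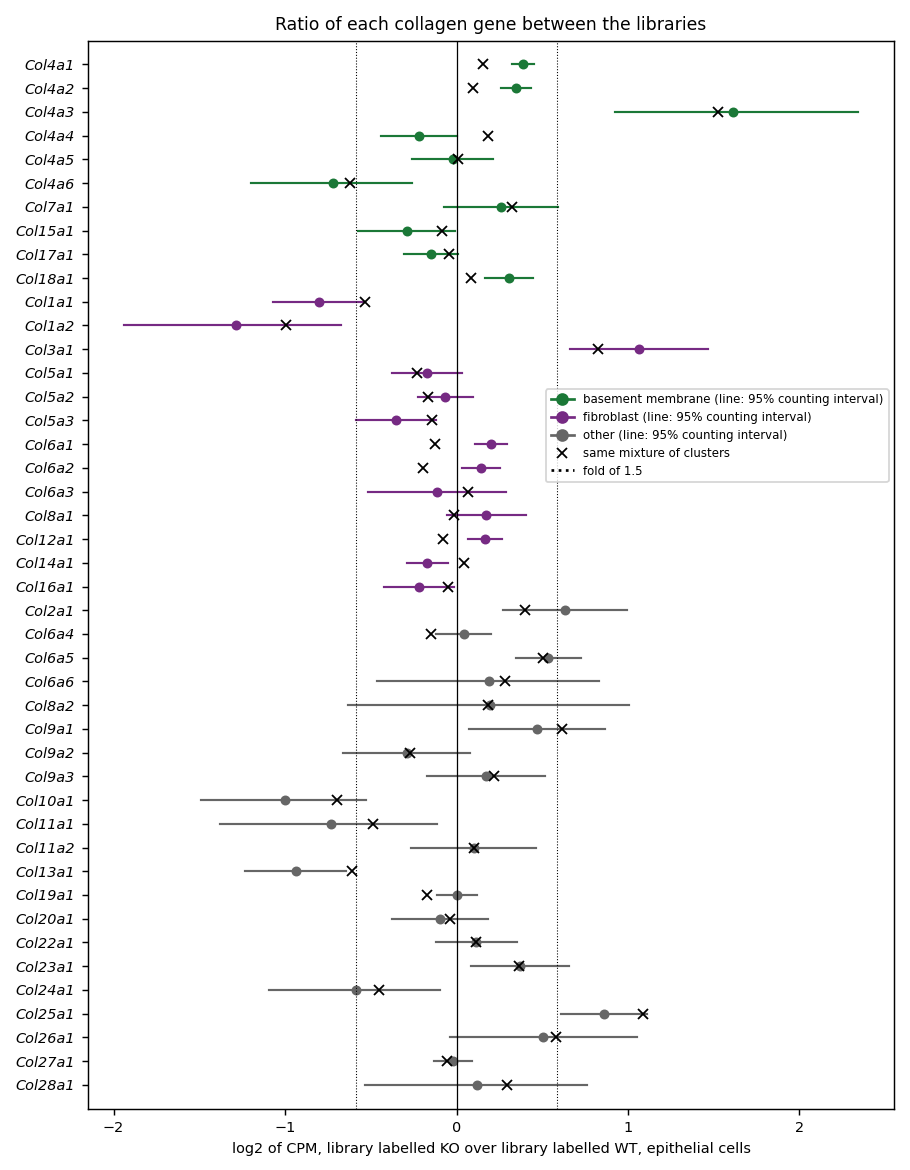
Log2 ratio of CPM in epithelial cells, library labelled KO over library labelled WT, for the 44 collagen genes, with 95% counting intervals (lines) and the ratio when clusters are given the same shares in both libraries (crosses). Dotted lines mark a fold of 1.5, and the crosses of Col4a1 and Col4a2 lie nearer to 0 than their points.

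The basement membrane group summed to 371 and 308 CPM, a log2 ratio of 0.27 (0.22 to 0.31). Col4a1 was at 174 and 133 CPM, a log2 ratio of 0.39 (0.32 to 0.45), Col4a2 at 92.6 and 72.8 CPM, a log2 ratio of 0.35 (0.26 to 0.43), and Col18a1 at 35.6 and 28.8 CPM, a log2 ratio of 0.31 (0.17 to 0.45). Of the clusters rich in these genes, cluster 0 had 483 and 308 cells, the low-RNA cluster 359 and 168, cluster 7 had 191 and 115, and cluster 5 had 361 and 527. With the same mixture of clusters in both libraries, the ratio was 0.11 for the group, and without cells that hold at least 2 stromal markers 0.46. In cluster 0, 72.7% and 81.2% of cells held at least 2 pericyte and smooth muscle markers, and 36.2% and 40.9% at least 2 fibroblast markers. Over all epithelial cells these shares were 41.5% and 40.1%, and 14.2% and 14.4%. Leaving such cells out takes many cells from a cluster rich in type IV collagen, so 0.46 cannot show the ratio free of stromal RNA. The same-mixture ratio was 0.15 for Col4a1, 0.10 for Col4a2 and 0.08 for Col18a1. Fewer cells of a type and less RNA per cell are separated here only as far as the clusters are right. Of cells thinned to 2000 UMIs, 46.4% and 41.5% held a UMI of the group, and 487 and 427 shallower cells were left out.

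The fibroblast group summed to 332 and 327 CPM, a log2 ratio of 0.02 (-0.02 to 0.07), and thinned shares were 40.6% and 40.9%. Within epithelial clusters, the interval lay off 0 in 5 of 14. The level in the KO library was below that in the WT library in cluster 0, at 623 and 777 CPM (-0.32, interval -0.42 to -0.22), in tuft-like cluster 1, at 200 and 248 CPM (-0.31, -0.52 to -0.10), and in cycling cells, at 150 and 185 CPM (-0.30, -0.47 to -0.13), and in cluster 5, at 911 and 989 CPM (-0.12, -0.23 to -0.0050). In keratinocyte-like cells it was above, at 145 and 112 CPM (0.38, 0.10 to 0.65). In cluster 0, Col6a2 was at 136 and 204 CPM, a log2 ratio of -0.58 (-0.78 to -0.38), and Col5a2 at 45.4 and 72.6 CPM, a log2 ratio of -0.68 (-1.02 to -0.33), while Col4a1 had a log2 ratio of 0.013 (-0.14 to 0.17). The pericyte markers in cluster 0 were lower in the same library, and their part was not tested.

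The genes that make collagen and bind it were read from lists drawn from general knowledge. Of 30 genes that modify, fold or export collagen, 29 had at least 50 UMIs, and 1 passed the fold, Pcolce2, an enhancer of procollagen processing, at 8.02 and 13 CPM, a log2 ratio of -0.69 (-0.95 to -0.43). The median of the 29 was 0.05. Those with most UMIs were Ppib and P4hb, which act on prolines, Mia3, which exports large cargo, and Serpinh1, the collagen chaperone, with log2 ratios of 0.24, -0.15, 0.003 and 0.22. With the same mixture of clusters the ratio of Serpinh1 was -0.12. Serpinh1 was highest of epithelial clusters in cluster 0, at 161 CPM, against 709 CPM in fibroblast-like cells. Of 19 partners in the basement membrane, 2 passed, the laminin genes Lama2, at 13.5 and 7.02 CPM with a log2 ratio of 0.94 (0.68 to 1.2), and Lamc3, at 4.28 and 2.40 CPM with 0.83 (0.38 to 1.29), and the median of the 19 was 0.11. The laminin chains Lama3, Lamb3 and Lamb1 had log2 ratios of 0.16, 0.15 and 0.11, and with the same mixture those of Lama3 and Lamb1 were -0.024 and -0.020. Lama3 and the integrin gene Itga6 were highest in cluster 5, at 212 and 824 CPM, the same cluster in which Col6a1 and Col6a2 peaked. Of 15 receptors with enough UMIs, 1 passed, Itga11, at 2.18 and 3.38 CPM with -0.63 (-1.15 to -0.13), and the median was -0.04. The receptor list genes with most UMIs, Itga6, Dst, Itgb1 and Plec, had log2 ratios of -0.04, -0.11, 0.09 and -0.20.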

How the data were processed

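Raw UMI counts per gene and barcode were deposited by the authors, and per the file headers they come from Cell Ranger 7.0.1. Seurat and the mm10 build are listed in the submitters' processing notes. The transcript end read and the counting of introns are not stated in the labels. The tables were counts as deposited, with no count below 500 per barcode. Barcodes passed with 500 genes or more, 1000 UMIs or more and no more than 10% of UMIs from mitochondrial genes. The doublet method of scanpy 1.11.5 called 0 cells and is taken not to have worked, so none were removed. Leaving out the 103 and 130 cells of highest score was an alternative.

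Both libraries were clustered together (3000 variable genes, 30 principal components, 15 neighbours, Leiden resolution 1) without the 44 collagen genes, Foxp1, Xist and Y-linked, mitochondrial, ribosomal and haemoglobin genes. To be named, a cluster had to show 3 or more markers, making up 33% of a list, each 2-fold up and in 10% of cells. That rule was chosen once the clusters were known. The members and lists were chosen with earlier results of these data known.

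UMIs were summed per library and cluster and scaled to CPM, with exact Poisson intervals, and ratios carry exact conditional binomial intervals from scipy 1.17.1. Depth was 25233944 and 33120715 UMIs in all. Genes with at least 50 UMIs were compared at a fold of 1.5. Where a count is 0, the limit is 3 counts. Every collagen gene was accounted for, and of each pathway list the 4 with most UMIs and those past the fold were named, except 1 gene that is not reported here. Gene positions came from GENCODE M21 on mm10. Of the 44 genes, 3 overlap another gene on the same strand (Col20a1, Col24a1 and Col26a1) and 13 on the opposite strand, among them Col4a1 and Col4a2, and their counts are less certain. The interval code was tested on simulated data.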

Additional observations from a re-analysis of the deposited data

Results flagged for a closer look

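For 10 collagen genes the log2 ratio between the libraries (KO over WT, as labelled) had its counting interval above 0 in 1 epithelial cluster and below 0 in another, among clusters with at least 50 UMIs of the gene. They were 10 of the 28 collagen genes with that many UMIs in at least 2 clusters, and 23.4% of all 12782 such genes had the same pattern. None of these differences between clusters was tested, and with 1 library per group none could be set against variation between mice. Col4a1 was at 0.72 in tuft-like cluster 12 and -0.63 in keratinocyte-like cells, and Col4a2 at 0.48 in microfold-like cells and -0.34 in cluster 7. Col4a4 was at 0.41 in tuft-like cluster 1 and -2.02 in tuft-like cluster 12, the latter from 13 and 69 UMIs. Col6a1 and Col6a2 were at 0.88 and 0.97 in keratinocyte-like cells and at -0.73 and -0.98 in tuft-like cluster 1. Col12a1 was at 1.06 in neuroendocrine-like cells and -0.39 in Aire-stage-like cluster 10. Col14a1 was at 0.36 in Aire-stage-like cluster 9 and -0.43 in cluster 4, and Col17a1 at 0.43 in cluster 4 and -1.72 in tuft-like cluster 1. Col27a1 was at 0.37 in cluster 10 and -1.20 in cluster 9, from 46 and 179 UMIs in the latter. Col13a1 was at 4.39 in tuft-like cluster 1, where 1 cell held 47 of the 52 UMIs, and -3.76 in cycling cells, where 1 cell held 47 of the 51.

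The 693 and 920 barcodes that the cell filter left out, most of them for mitochondrial UMIs, also held collagen UMIs. The basement membrane group was at 636 and 399 CPM in them, against 413 and 331 CPM in the kept cells, and the fibroblast group at 449 and 365 CPM, against 381 and 353 CPM.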

How the results depend on the processing

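No paired analysis was possible because each group is 1 library. The log2 ratio of the basement membrane group, 0.27 in the report, was 0.19 with a stricter cell filter, 0.46 without cells with at least 2 stromal markers, 0.20 without the low-RNA cluster (an alternative added after seeing the data), 0.40 with equal weight per cell and 0.11 with the same mixture of clusters. The cells with at least 2 stromal markers include many of epithelial cluster 0, as given above. The ratio of the fibroblast group, 0.02, was 0.11 with equal weight per cell and -0.11 with the same mixture. The count of 10 genes past the fold was 4 at a fold of 2, beside 4.12% of all genes, and 5 of the 34 genes with at least 200 UMIs, beside 7.03%. With the same mixture, 4 genes whose interval had lain off 0 changed sign: Col6a1 to -0.13, Col6a2 to -0.20, Col12a1 to -0.079 and Col14a1 to 0.045. In all, 10 genes changed sign there, and the cause was not tested. Leaving out the highest doublet scores moved no gene beyond its interval. Depth limits single genes in small clusters: 3 counts are 4.07 CPM in ciliated-like and 19.7 CPM in fibroblast-like cells. Col10a1 has no ratio without its 10 highest cells of each library.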

Other observations

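Collagen genes of the non-epithelial cells were read between the libraries as well. Endothelial-like cells had Col4a1 at 531 and 552 CPM, a log2 ratio of -0.06 (interval -0.22 to 0.11), and Col4a2 at 300 and 322 CPM, a log2 ratio of -0.11 (-0.32 to 0.11). Col15a1, a collagen of the capillary basement membrane zone, was at 48.1 and 97.2 CPM there, a log2 ratio of -1.01 (-1.47 to -0.56). In the 24 and 12 fibroblast-like cells, Col4a1 was at 406 and 994 CPM, a log2 ratio of -1.29 (-1.92 to -0.67), and Col6a3 at 178 and 994 CPM, a log2 ratio of -2.48 (-3.34 to -1.68). Col1a1 was at 2000 and 1676 CPM in the same cells, a log2 ratio of 0.25 (-0.12 to 0.64). The mesothelial-like cells, 10 and 7, had Col1a2 at 1019 and 646 CPM and Col3a1 at 1759 and 1552 CPM.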
